A study of Mus musculus with 23 samples.

Results

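Rab44, Rab7b, Vps33b, Snx12 and Sqstm1 encode 5 proteins of lysosomes, autophagy and vesicle trafficking, and were followed through 2 sorted mouse marrow populations that carried or lacked p110α and p110δ. They were taken as the transcript clusters whose gene symbol in any of the authors' 6 comparison tables equalled 1 of these names, which gave 5 clusters, 1 per gene, of the 561 clusters with a symbol in those tables and the 65956 clusters measured. Rab44 is cluster TC1700000498.mm.1 on chromosome 17, Rab7b is TC0100001173.mm.1 on chromosome 1, Vps33b is TC0700001150.mm.1 on chromosome 7, Snx12 is TC0X00002712.mm.1 on chromosome X and Sqstm1 is TC1100002664.mm.1 on chromosome 11. All 5 passed the filter on low values.

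Hematopoietic stem cells (HSC; lineage-negative, c-Kit+, Flk2-, CD150+, CD48-) and lymphoid-primed multipotent progenitors (LMPP; lineage-negative, c-Kit+, Flk2+, CD150-, CD48+) came from pooled recipients of marrow transplants, and the RNA of each sample was hybridised to 1 Affymetrix Mouse Transcriptome Assay 1.0 array. The genotypes were p110α-/-, p110δ-/-, both (p110αδ DKO, here DKO) and WT, with 3 arrays per genotype in HSC and, in LMPP, 3 of each knockout and 2 of WT. Each group of 3 held 1 female and 2 male samples, and LMPP WT held 1 of each. The sources used here do not give the strain, the age, the host cells left in the recipients, or how and in which cells the alleles were deleted. Nor do the labels tie the arrays of a group to separate pools of recipients: the p-values then rest on a spread between samples that may be technical. HSC and LMPP arrays of one genotype may also share recipients, which the labels leave unsaid; they entered the joint fits as independent samples. Precision is limited by the number of arrays.

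Class I phosphoinositide 3-kinases make PIP3 at the plasma membrane through catalytic subunits that include p110α (encoded by Pik3ca) and p110δ (Pik3cd, found mainly in leukocytes). PIP3 activates Akt and mTORC1, which restrain autophagy and, through the transcription factors TFEB and FOXO, genes of autophagy and lysosomes. Along the endosome to lysosome route, Rab GTPases and their partners direct vesicles, sorting nexins bind PI3P on endosomes, and the receptor p62 carries ubiquitinated cargo to autophagosomes. In marrow the same machinery builds the secretory granules of myeloid cells, mast cells and platelets.

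How the genes had come to be listed bears on what could be tested. In the authors' deposited tables each gene is listed once, always in LMPP. Rab44 is listed for DKO with a signed fold of 2.78, Sqstm1 for DKO with -2.01, Rab7b for p110δ-/- with -2.42, Vps33b for p110δ-/- with 2.66 and Snx12 for p110α-/- with 2.24. Every entry of the 6 tables has a fold of at least 2.01 with an unadjusted p-value below 0.05, and the deposited FDR values of these 5 entries were 0.682 for DKO, 0.779 for p110δ-/- and 0.701 for p110α-/-. These 5 LMPP contrasts are therefore given as descriptions, and the other LMPP contrasts share the same 2 WT arrays. With 1 exception, no HSC array entered these 5 contrasts. The deposited p110α-/- average of Snx12 in LMPP, 9.61, equalled the biweight average of LMPP p110α-/- replicates 1 and 2 with HSC p110α-/- replicate 2, 9.61, whereas the 3 arrays labelled LMPP p110α-/- gave 9.77. Over the 299 clusters of that comparison, 100% of the deposited p110α-/- averages matched the set with the HSC array and 14.05% the arrays as labelled. In every other comparison 100% of the knockout averages matched the arrays as labelled. All values that follow use the arrays as labelled.

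Array medians were log2 4.83 to 5.04 for all arrays but LMPP WT replicate 2, whose median was 5.29 and whose mean correlation with the other LMPP arrays was 0.961, against 0.980 to 0.986 for the rest of LMPP. Values without it are given beside many of the LMPP results it entered. The HSC genes Vwf, Tek and Selp averaged log2 9.96 to 11.12 on HSC arrays and 7.39 to 8.45 on LMPP arrays. The LMPP markers, the sort markers and the targeted genes Pik3ca and Pik3cd were not analysed here. Of 21 genes of granulocytes and monocytes, the 15 named in the comparison tables formed a list. This list averaged 5.85 to 8.80 on HSC arrays. In LMPP it averaged 11.94 to 14.40 in p110α-/-, 7.72 to 9.68 in p110δ-/-, 9.46 to 12.33 in DKO and 12.76 to 13.28 in WT. Those tables list clusters for differing from WT, so differences between genotypes in any marker list used here are favoured by that choice. Whether the granulocyte and monocyte signal came from mature cells or from progenitors inside the gate was not tested.

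Rab44 and Rab7b separated the 2 populations, whereas Vps33b, Snx12 and Sqstm1 did not. Averaged over the 4 genotypes, Rab44 was 46.2-fold lower in HSC than in LMPP and Rab7b 3.13-fold lower. Both were called by limma at an adjusted p below 0.05, and 2 of 5 genes called stands against 23.3% of the 32978 clusters tested in that comparison. In WT alone the same 2 of 5 were called, against 8.46% of clusters. Fewer cells of a type and less RNA per cell cannot be told apart in these bulk samples. The LMPP WT arrays of this comparison are those against which the genes had been listed.

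Rab44 is a large Rab GTPase with EF-hand domains, found in immune cells and known in mouse mast cells for its part in granule exocytosis. Across all 12 HSC arrays its log2 value lay between 6.20 and 7.51, with a median of 6.54, and across the 11 LMPP arrays between 10.25 and 14.51, with a median of 11.87. The ranges are separated by more than the whole spread of the HSC arrays. The difference, HSC minus LMPP, was -5.53 on the log2 scale (SE 0.27, adjusted p 5.99e-11), and in WT alone -4.72 (SE 0.58, adjusted p 7.6e-05). Without LMPP WT replicate 2 the WT value was -4.31 (adjusted p 0.00328).

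Rab7b, which directs transport between endosomes and the trans-Golgi network and Toll-like receptor traffic in macrophages, was near the low end of the array in HSC, at 4.85 to 5.22 with a median of 5.03. In LMPP it read 5.43 to 7.69 with a median of 6.85, above every HSC array. The difference was -1.65 (SE 0.12, adjusted p 6.84e-09), and in WT alone -2.18 (SE 0.25, adjusted p 4.4e-05), or -2.08 (adjusted p 0.00159) without LMPP WT replicate 2. The HSC values lie close to 4.95, the median of all cluster means.

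The granulocyte and monocyte genes differed between the populations in the same direction, and all 14 of the tested members of that list were called lower in HSC, with a median of -4.40. The 3 mast cell, basophil and eosinophil genes named in the comparison tables, of 9 listed (Hdc, Cpa3 and Epx), were also called lower in HSC. Their mean was 5.12 to 6.21 on HSC arrays and 5.76 to 10.87 on LMPP arrays. The 2 macrophage genes so named, of 8 listed (Vcam1 and Slc40a1), were called lower in HSC too. The part of such cells in the levels of Rab44 and Rab7b was not tested.

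Vps33b, Snx12 and Sqstm1 had HSC minus LMPP differences of 0.19 (95% interval -0.20 to 0.58), -0.02 (-0.35 to 0.31) and -0.03 (-0.55 to 0.49), none of which was called. In WT alone Snx12 was 9.11, 9.31 and 10.29 in HSC and 8.92 and 7.99 in LMPP. Its difference was 1.12 (SE 0.34) at an adjusted p of 0.0501, just outside the threshold, and 0.65 without LMPP WT replicate 2.

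**Figure D1:**
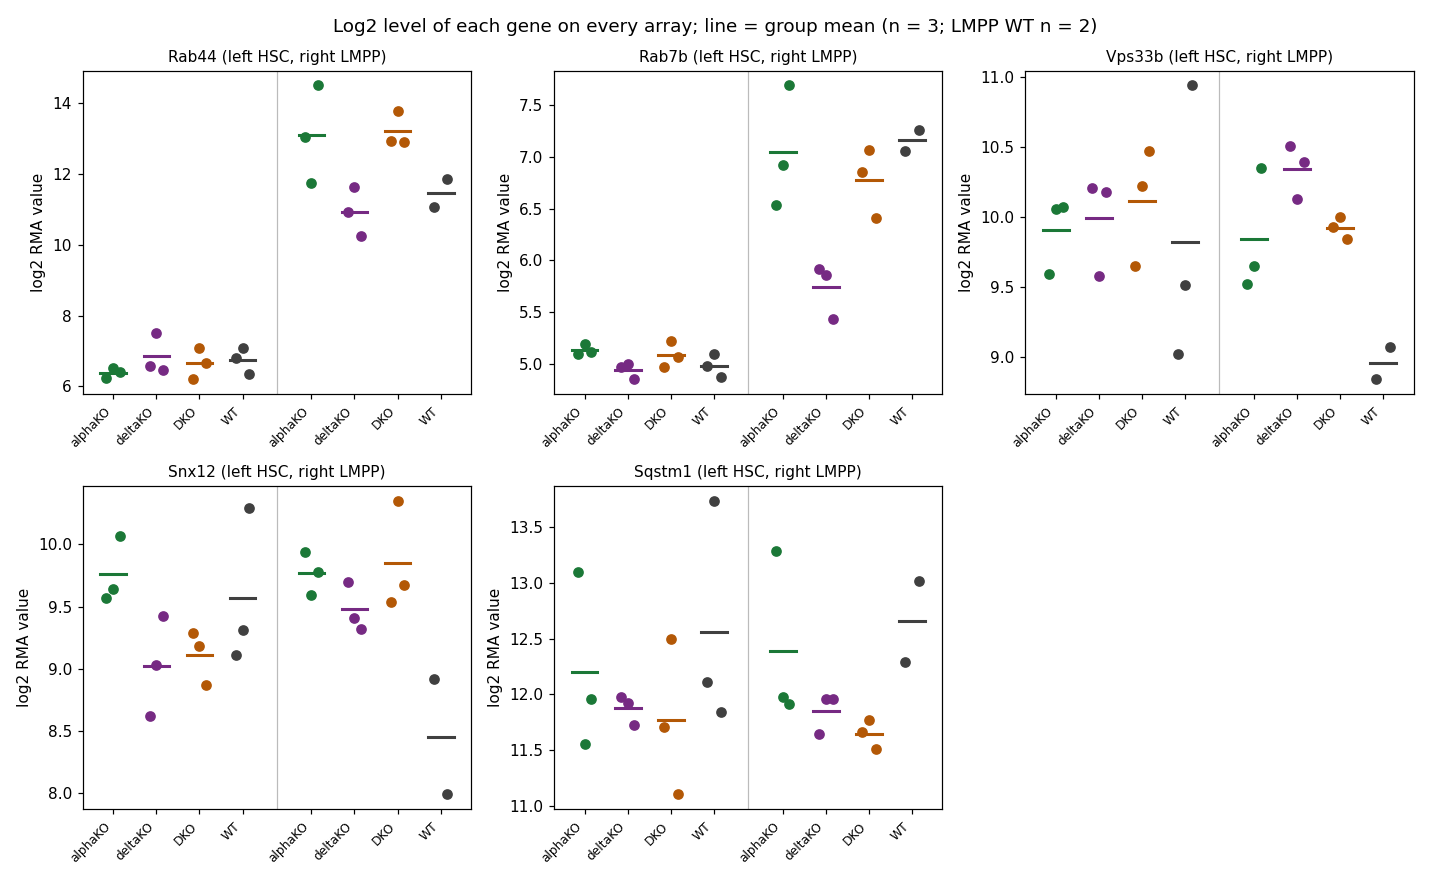
Log2 RMA values (y axes, a separate scale for each gene) of the 5 genes on each of the 23 arrays, with HSC left and LMPP right of the grey line and the groups p110α-/- (alphaKO), p110δ-/- (deltaKO), DKO and WT from left to right; points are arrays and bars are group means. Rab44 and Rab7b lie higher on every LMPP array than on any HSC array, and Vps33b and Snx12 are lowest on average in LMPP WT.

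The second question was whether loss of p110α, p110δ or both moved these genes. None of the 5 was called in any knockout comparison, in HSC or in LMPP. In LMPP the array values separated for some genes and comparisons, and those are described gene by gene. How many of all clusters separate in the same way was not counted, so nothing is read from such separations.

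In LMPP, 0 of 5 genes were called in p110α-/- against WT (0% of clusters), 0 of 5 in p110δ-/- against WT (0.388%) and 0 of 5 in DKO against WT (0%). At an unadjusted p below 0.05 the counts were 3 of 5 (8.73% of clusters) in p110α-/-, 3 of 5 (12.2%) in p110δ-/- and 4 of 5 (14.2%) in DKO, a surplus that the listing itself favours and from which nothing is read. The median difference of the 5 genes was 0.89 in p110α-/-, -0.53 in p110δ-/- and 0.97 in DKO, against 0.04, 0.07 and 0.05 over all clusters tested. Over the 282 named genes that had been listed in the same tables and were tested, it was 0.30, -0.53 and -0.16.

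The 4 genotypes also form a layout in which each subunit is lost in the presence or absence of the other. For p110δ-deficient LMPP (p110δ-/- and DKO) against p110δ-containing LMPP (p110α-/- and WT), 0 of 5 genes were called (0.631% of clusters), and 4 of 5 had an unadjusted p below 0.05 (11.9%). For p110α-deficient LMPP (p110α-/- and DKO) against p110α-containing LMPP (p110δ-/- and WT), 0 of 5 were called (0%), and 2 of 5 had an unadjusted p below 0.05 (7.14%). These arrays are those of the contrasts above in another grouping.

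Rab44 was high in the LMPP that lacked p110α. It read 13.06, 11.76 and 14.51 in p110α-/-, 10.92, 11.64 and 10.25 in p110δ-/-, 12.95, 13.80 and 12.92 in DKO, and 11.06 and 11.87 in WT. Of the 6 p110α-deficient arrays, 5 lay above all 5 p110α-containing arrays and 1, p110α-/- replicate 2, fell among them. The p110α-deficient minus p110α-containing difference was 1.97 (SE 0.47, 95% interval 0.92 to 3.02), a 3.92-fold size, with an adjusted p of 0.64. Against WT it was 1.65 (SE 0.70, adjusted p 0.553) in p110α-/-, -0.53 (SE 0.70, adjusted p 0.757) in p110δ-/- and 1.76 (SE 0.70, adjusted p 0.332) in DKO. Without LMPP WT replicate 2 these were 2.05, -0.12 and 2.17, again uncalled. Without LMPP p110α-/- replicate 3, at 14.51, the p110α-/- value was 0.95. Group means ran from 13.23 ± 0.50 in DKO and 13.11 ± 1.38 in p110α-/- to 11.46 ± 0.57 in WT and 10.94 ± 0.69 in p110δ-/- (SD; n = 3, 3, 2 and 3), and each neighbouring pair in this order overlapped.

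Comparisons among the knockouts leave out the WT means, and were added after the values were seen. They still use knockout arrays by which genes had been listed. These are p110δ-/- for Rab7b and Vps33b, DKO for Rab44 and Sqstm1, and p110α-/- replicates 1 and 2 for Snx12. Rab44 was 2.18 (SE 0.63, adjusted p 0.472) higher in p110α-/- than in p110δ-/- LMPP, with no overlap between the 2 groups, and 2.29 (SE 0.63, adjusted p 0.918) higher in DKO than in p110δ-/- LMPP, again without overlap. DKO and p110α-/- differed by 0.11, with a 95% interval of -1.29 to 1.52, and by 0.81 without LMPP p110α-/- replicate 3. Counts of the 5 genes in these comparisons were 0 called and 3 with an unadjusted p below 0.05 for p110α-/- against p110δ-/- (0.418% and 5.75% of clusters), 0 and 2 for DKO against p110δ-/- (0% and 3.70%), and 0 and 0 for DKO against p110α-/- (0.00606% and 5.35%). The listing bears on these counts too, and nothing is read from them.

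Rab7b had its lowest LMPP values in p110δ-/-. It read 6.53, 6.92 and 7.69 in p110α-/-, 5.92, 5.86 and 5.43 in p110δ-/-, 6.85, 7.07 and 6.41 in DKO, and 7.06 and 7.26 in WT. All 3 p110δ-/- arrays lay below every other LMPP array and above every HSC array, and the DKO arrays overlapped p110α-/- and WT. The difference of p110δ-/- from WT was -1.43 (SE 0.33), a 2.69-fold size, at an adjusted p of 0.158, and without LMPP WT replicate 2 it was -1.33. That of DKO was -0.39 (95% interval -1.13 to 0.35) and that of p110α-/- was -0.12 (-0.86 to 0.62). In order the means were 7.16 ± 0.14 in WT, 7.05 ± 0.59 in p110α-/-, 6.78 ± 0.34 in DKO and 5.74 ± 0.27 in p110δ-/- (SD). DKO was 1.04 (SE 0.30, adjusted p 0.918) above p110δ-/-, and p110α-/- was 1.31 (SE 0.30, adjusted p 0.197) above it.

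The granulocyte and monocyte genes read 8.36, 9.68 and 7.72 in the p110δ-/- arrays, with DKO replicate 3 between them at 9.46, and were highest, at 14.40, in p110α-/- replicate 3, the LMPP array with the highest Rab7b and the highest Rab44. For Rab44 the 2 readings parted in DKO and WT. DKO replicates 1 and 3 had Rab44 at 12.95 and 12.92 with the marker list at 9.95 and 9.46, and the WT arrays had Rab44 at 11.06 and 11.87 with the list at 13.28 and 12.76. Differences of the marker list between genotypes are favoured by how its genes were chosen. The part of these cells in the differences of either gene was not tested.

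**Figure D2:**
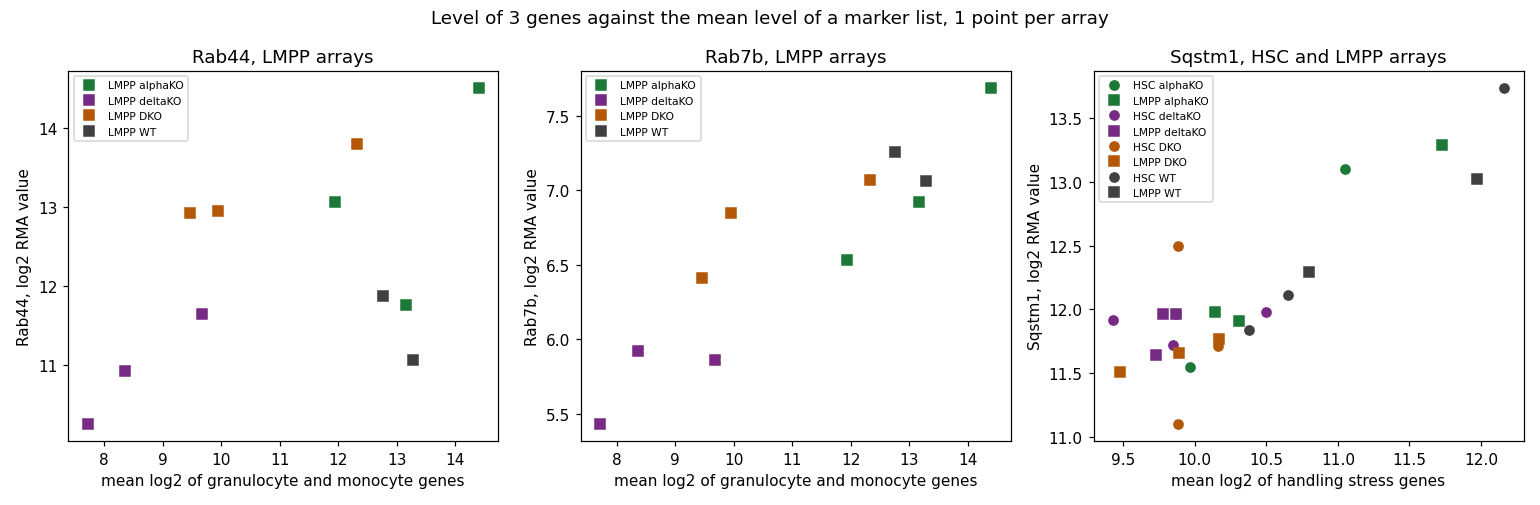
Left and middle, Rab44 and Rab7b (y axes, log2 RMA value) on the 11 LMPP arrays against the mean log2 value of 15 granulocyte and monocyte genes (x axes); right, Sqstm1 on all 23 arrays against the mean of the handling stress genes Ddit3 and Gadd45b. Each point is 1 array; p110δ-/- LMPP arrays lie at the lower left for Rab7b, DKO replicates 1 and 3 lie above both WT arrays for Rab44 at lower marker values, and the 4 arrays with the highest Sqstm1 lie at the right.

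Vps33b is a Sec1/Munc18-family protein that acts with VIPAS39 and is required in human and mouse platelets for alpha-granules. In LMPP it read 9.52, 9.65 and 10.35 in p110α-/-, 10.51, 10.13 and 10.39 in p110δ-/-, 9.93, 9.997 and 9.84 in DKO, and 8.84 and 9.07 in WT. All 9 knockout arrays lay above both WT arrays, against which the gene had been listed. The difference from WT was 0.89 (SE 0.25, adjusted p 0.553) in p110α-/-, 1.39 (SE 0.25, adjusted p 0.0566) in p110δ-/- and 0.97 (SE 0.25, adjusted p 0.296) in DKO. The p110δ-/- value, a 2.62-fold size, was the nearest of any knockout value to the threshold, and without LMPP WT replicate 2 it was 1.5 at an adjusted p of 0.154. Over all 8 groups each neighbour in the order of means overlapped the next, from 10.34 ± 0.19 in p110δ-/- LMPP down to 8.95 ± 0.16 in WT LMPP (SD). p110δ-/- LMPP and p110α-/- LMPP overlapped, with a difference p110α-/- minus p110δ-/- of -0.50 (95% interval -0.99 to -0.01, adjusted p 0.854).

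Snx12, a PX-domain sorting nexin of early endosomes, had the same arrangement. It read 9.94, 9.59 and 9.78 in p110α-/-, 9.70, 9.41 and 9.32 in p110δ-/-, 9.54, 10.35 and 9.67 in DKO, and 8.92 and 7.99 in WT. All 9 knockout arrays again lay above both WT arrays, against which Snx12 had been listed too. The lower WT value came from replicate 2, the array that stands apart. The difference from WT was 1.32 (SE 0.31, adjusted p 0.553) in p110α-/-, 1.02 (SE 0.31, adjusted p 0.294) in p110δ-/- and 1.40 (SE 0.31, adjusted p 0.287) in DKO. Without that WT array the values were 0.85, 0.55 and 0.93, all smaller and none called. The HSC list (Vwf, Tek and Selp) also averaged more on all 9 knockout LMPP arrays, 7.59 to 8.45, than on the WT ones, 7.39 and 7.58. Its 3 genes are those of 7 HSC markers that were named in the comparison tables, a choice that favours differences from WT. Both Vps33b and Snx12 were higher in WT HSC than in WT LMPP, by 0.87 and 1.12, uncalled. Against WT, Tek differed by 0.50, 0.97 and 1.43 and Selp by 0.45, 0.87 and 1.43 in p110α-/-, p110δ-/- and DKO LMPP, and Vwf by -0.15, -0.23 and -0.08, none called. Without LMPP WT replicate 2 the Selp values were 0.01, 0.43 and 0.99. The part of HSC in the Vps33b and Snx12 differences was not tested. The order of the 8 group means ran from 9.85 ± 0.44 in DKO LMPP to 8.45 ± 0.66 in WT LMPP (SD), with a gap between neighbours only at p110δ-/- LMPP (9.47 ± 0.20) and DKO HSC (9.11 ± 0.22). Between knockouts Snx12 differed by 0.30 for p110α-/- minus p110δ-/- (95% interval -0.33 to 0.92) and by 0.09 for DKO minus p110α-/- (-0.54 to 0.71).

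Sqstm1 encodes p62, the selective autophagy receptor that binds ubiquitin and LC3 and, through KEAP1, releases NRF2. In LMPP it read 13.29, 11.98 and 11.91 in p110α-/-, 11.64, 11.96 and 11.96 in p110δ-/-, 11.66, 11.77 and 11.51 in DKO, and 12.29 and 13.02 in WT. Of the 9 knockout arrays, 8 lay below both WT arrays and p110α-/- replicate 1 lay above them. The difference from WT was -0.26 (95% interval -1.13 to 0.61) in p110α-/-, -0.80 (-1.67 to 0.07) in p110δ-/- and -1.01 (-1.88 to -0.14, adjusted p 0.325) in DKO. For p110δ-deficient minus p110δ-containing LMPP it was -0.77 (SE 0.26, adjusted p 0.3), with the 6 deficient arrays at 11.51 to 11.96 and the 5 others at 11.91 to 13.29. The 8 group means ran from 12.65 ± 0.51 in WT LMPP to 11.64 ± 0.13 in DKO LMPP (SD), and each neighbour overlapped the next. Without LMPP WT replicate 2 the values were 0.10 in p110α-/-, -0.43 in p110δ-/-, -0.65 in DKO and -0.59 for p110δ-deficient LMPP.

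The highest Sqstm1 values went with high values of 2 handling stress genes, Ddit3 and Gadd45b, which are induced when cells are stressed during isolation. The handling stress list held 8 genes, and the others were not analysed. Ddit3 and Gadd45b were kept because the comparison tables named them, a choice that favours differences from WT in these 2 genes. Their mean was 11.73 in LMPP p110α-/- replicate 1, 11.05 in HSC p110α-/- replicate 1, 11.97 in LMPP WT replicate 2 and 12.16 in HSC WT replicate 2, where Sqstm1 read 13.29, 13.10, 13.02 and 13.74. On the other 19 arrays that mean was 9.43 to 10.80 and Sqstm1 was 11.10 to 12.50. The highest Sqstm1 among those 19, 12.50 on HSC DKO replicate 2, came with a mean of only 9.88. The part of handling in the Sqstm1 differences was not tested.

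**Figure D3:**
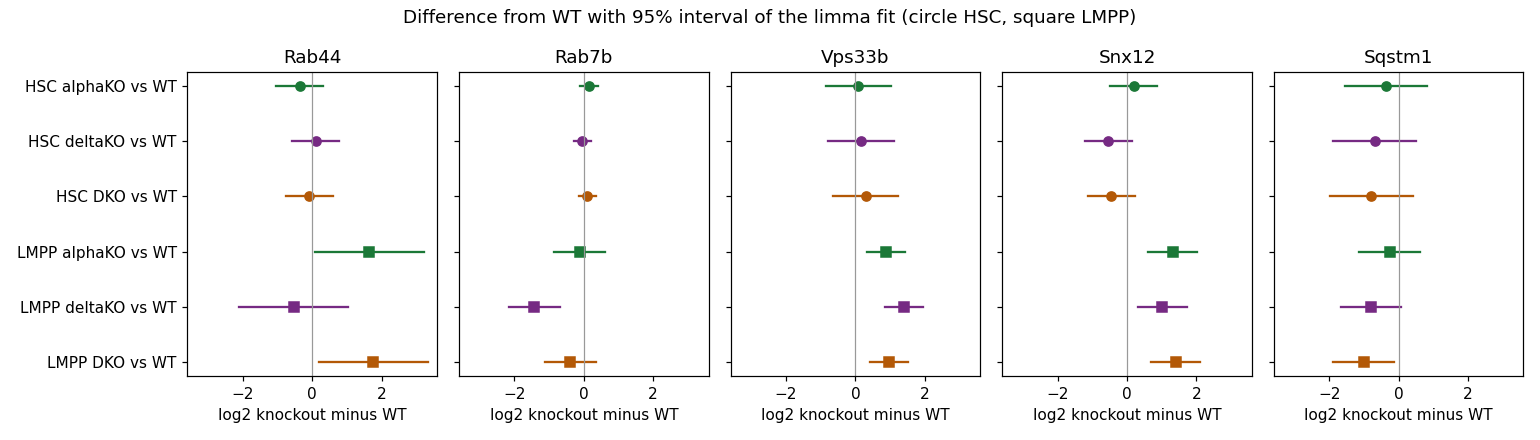
Difference from WT on the log2 scale (x axes) for each gene in p110α-/- (alphaKO), p110δ-/- (deltaKO) and DKO, with circles for HSC, squares for LMPP and lines for the 95% interval of the limma fit. No value was called; in LMPP the intervals of Vps33b and Snx12 lie above 0 in all 3 knockouts and that of Rab7b lies below 0 in p110δ-/-.

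The HSC arrays gave values in cells that had played no part in listing Rab44, Rab7b, Vps33b and Sqstm1. None of the 5 genes was called there. The counts were 0 of 5 in p110α-/- against WT (0% of clusters), 0 of 5 in p110δ-/- against WT (0.00910%) and 0 of 5 in DKO against WT (0.00910%), and at an unadjusted p below 0.05 also 0 of 5 in each (2.79%, 8.37% and 8.44% of clusters). For p110δ-deficient against p110δ-containing HSC the counts were 0 (0.291%) and 1 (11.1%), and for p110α-deficient against p110α-containing HSC 0 (0%) and 0 (4.02%).

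Rab44 in HSC read 6.24, 6.51 and 6.39 in p110α-/-, 6.58, 7.51 and 6.45 in p110δ-/-, 6.20, 7.09 and 6.66 in DKO, and 6.80, 7.07 and 6.36 in WT, so all groups overlapped WT. The p110α-deficient minus p110α-containing difference was -0.28 (95% interval -0.76 to 0.20), against 1.97 in LMPP. Rab7b read 5.09, 5.19 and 5.11 in p110α-/-, 4.97, 5.004 and 4.85 in p110δ-/-, 4.97, 5.22 and 5.06 in DKO, and 4.98, 5.09 and 4.87 in WT. Its differences from WT lay between -0.04 and 0.15. Each knockout group overlapped WT, p110α-/- only at 5.09, and the p110α-/- arrays all lay above the p110δ-/- arrays.

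Vps33b in HSC read 9.59, 10.06 and 10.07 in p110α-/-, 10.21, 9.58 and 10.18 in p110δ-/-, 9.65, 10.22 and 10.47 in DKO, and 9.02, 9.51 and 10.94 in WT. The 3 WT arrays spanned all 9 knockout arrays, and the differences of 0.08, 0.17 and 0.29 had 95% intervals that together ran from -0.86 to 1.24. The upper end of that span was WT replicate 3, at 10.94, and without it the differences were 0.64, 0.73 and 0.85, none called. Snx12 read 9.57, 9.64 and 10.07 in p110α-/-, 8.62, 9.03 and 9.42 in p110δ-/-, 9.29, 9.18 and 8.87 in DKO, and 9.11, 9.31 and 10.29 in WT. Its p110δ-deficient minus p110δ-containing difference was -0.60 (SE 0.22, adjusted p 0.332), the 1 value with an unadjusted p below 0.05 in HSC, with deficient arrays at 8.62 to 9.42 and containing arrays at 9.11 to 10.29. In LMPP the same contrast was 0.55 (SE 0.21, adjusted p 0.351), and 0.32 (adjusted p 0.806) without LMPP WT replicate 2. Without HSC WT replicate 3 the HSC value was -0.42, and the differences from WT, 0.19 in p110α-/-, -0.55 in p110δ-/- and -0.46 in DKO, were 0.55, -0.19 and -0.10.

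Sqstm1 in HSC read 13.10, 11.55 and 11.96 in p110α-/-, 11.98, 11.92 and 11.72 in p110δ-/-, 11.71, 12.50 and 11.10 in DKO, and 12.11, 13.74 and 11.84 in WT. The WT mean rested on replicate 2. The differences from WT were -0.36, -0.69 and -0.79 for p110α-/-, p110δ-/- and DKO, and 0.23, -0.10 and -0.20 without that array.

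Whether a knockout effect differed between HSC and LMPP was asked of all 3 knockouts together with an F test in limma. None of the 5 genes was called (0.0121% of clusters), and 3 had an unadjusted p below 0.05 (6.89%). The test contains the LMPP contrasts by which the genes had been listed, so nothing is read from this count or from the sizes that follow. The adjusted p was 0.549 for Rab44, Rab7b and Snx12, 0.766 for Vps33b and 0.994 for Sqstm1. The HSC effect minus the LMPP effect was -2.01 (SE 0.77) for Rab44 in p110α-/-, 1.39 (SE 0.34) for Rab7b in p110δ-/- and -1.86 (SE 0.46) for Snx12 in DKO. For Sqstm1 it lay between -0.10 and 0.22 over the 3 knockouts, and in p110α-/- its 95% interval was -1.62 to 1.42.

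The other genes of the pathway came from lists of 58 autophagy, 100 lysosome, 199 vesicle trafficking and 18 NRF2 genes, of which 2, 2, 5 and 1 had a name in the comparison tables. Because those tables list clusters for differing from WT, these 10 genes are not independent evidence of a direction. None was called in any single knockout against WT. In p110δ-deficient against p110δ-containing LMPP, 1 of 10 was called, the endolysosomal aspartic protease gene Ctse, which rose by 0.79 (SE 0.14, adjusted p 0.046), against 0.631% of clusters. Without LMPP WT replicate 2 it was 0.69 (adjusted p 0.146), and the call held only without WT replicate 1 or DKO replicate 2 of the 11 arrays left out in turn. In the same contrast in HSC, 1 of 10 was called, Rab6b, a Golgi Rab GTPase gene, which fell by 0.89 (SE 0.11, adjusted p 0.0168), against 0.291% of clusters. That call was lost, with adjusted p-values of 0.0504 to 0.0814, when p110δ-/- replicate 2, DKO replicate 1, DKO replicate 3, WT replicate 2 or WT replicate 3 was left out.

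The autophagy genes Atg101, of the ULK1 complex, and Sesn1, a sestrin that restrains mTORC1, had LMPP differences from WT of 1.40 and 1.13 in p110α-/-, 0.92 and 1.44 in p110δ-/- and 1.63 and 1.39 in DKO, none of them called, the smallest adjusted p being 0.222. Without LMPP WT replicate 2 they were 0.70 and 0.62, 0.22 and 0.93, and 0.93 and 0.88. In HSC Atg101 was lower than WT, by -0.37 in p110α-/-, -0.88 in p110δ-/- and -0.98 in DKO. Sesn1 differed there by 0.01, 0.36 and 0.25, and none of these HSC values was called. The NRF2 target Gsr, glutathione reductase, differed by 0.49, -1.76 and -0.87 in p110α-/-, p110δ-/- and DKO LMPP, also uncalled. Vamp3, a SNARE of recycling endosomes, differed by -0.21, -1.01 and -1.38 in LMPP and by -0.40, -1.01 and -1.23 in HSC, all uncalled. Between populations, HSC minus LMPP, 4 of 10 were called. Laptm4b, a lysosomal membrane protein gene, was lower in HSC (-1.22), as was Gsr (-1.68), and the sorting nexin gene Snx14 (1.20) and the Rab27 effector gene Sytl5 (1.84) were higher. The share of all clusters called there is the 23.3% given above.

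**Figure D4:**
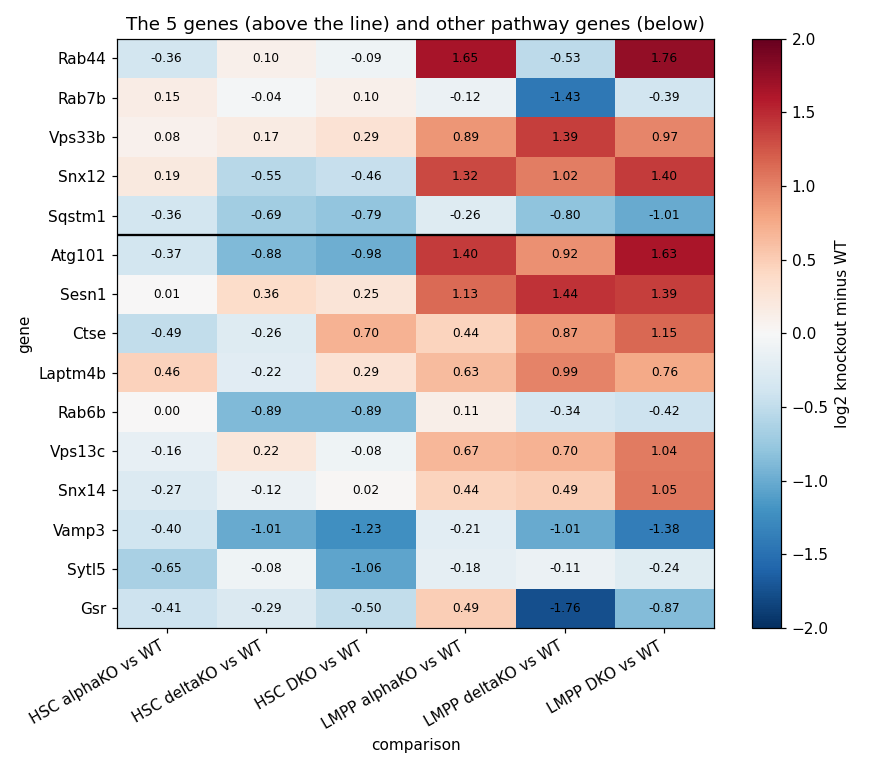
Differences from WT on the log2 scale (colour and printed value) of the 5 genes, above the line, and of the 10 other named pathway genes, below it (y axis), in the 6 knockout comparisons (x axis; alphaKO, deltaKO and DKO in HSC and then LMPP). No cell was called; Vps33b, Snx12, Atg101, Sesn1, Ctse, Laptm4b, Vps13c and Snx14 are positive in all 3 LMPP comparisons, which share 2 WT arrays.

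Among the 5 genes themselves the array values of some pairs moved together and those of most did not. After each population's mean was removed, Pearson's r over the 23 arrays was highest for Rab44 with Rab7b, at 0.64 (Spearman's rho 0.34), and lowest for Vps33b with Sqstm1, at -0.51 (rho -0.48). For Vps33b with Snx12 it was 0.46 (rho 0.32), and for the remaining pairs it lay between -0.34 and 0.27. The points share arrays and genotypes, and the values are descriptions. Only the means were removed, not the spreads. The SD of Rab44 was 0.40 in HSC and 1.31 in LMPP, and that of Rab7b 0.12 and 0.68. Any r of these 2 genes therefore rests more on the LMPP arrays. Genes like each member were sought only among the 308 named clusters of the comparison tables, not among all clusters measured. As those clusters had been listed for differing from WT, as the members had, high values are favoured. The named genes most like each member by the same r over 23 arrays were Mgam (0.87), Atp8b4 (0.85) and Ms4a3 (0.83) for Rab44. They were Mrgpra2b (0.91), Trem3 (0.91) and Olr1 (0.88) for Rab7b. For Vps33b they were Itpa-ps1 (0.78), Prmt7 (0.75) and Srm (0.75), and for Snx12 Cyb5b (0.80), Nom1 (0.78) and Tmem50a (0.76). For Sqstm1 they were Cdkn1a (0.89), Tnfaip3 (0.89) and Map2k3 (0.87). Ms4a3 and Trem3 belong to the granulocyte and monocyte list.

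Promoter sequence was at hand for 2 of the 5 genes, Sqstm1 and Snx12, and is shown because TFEB, FOXO and NRF2, the factors named in the background, act on promoters. The windows run from 250 bases before to 50 bases after the gene start (RefSeq, GRCm38.p6), at chr11:50210771-50211070 and chrX:101222514-101222813, both on the minus strand and written 5′ to 3′, with matches to TATAAA and to the GC box GGGCGG on either strand in capitals.
Sqstm1: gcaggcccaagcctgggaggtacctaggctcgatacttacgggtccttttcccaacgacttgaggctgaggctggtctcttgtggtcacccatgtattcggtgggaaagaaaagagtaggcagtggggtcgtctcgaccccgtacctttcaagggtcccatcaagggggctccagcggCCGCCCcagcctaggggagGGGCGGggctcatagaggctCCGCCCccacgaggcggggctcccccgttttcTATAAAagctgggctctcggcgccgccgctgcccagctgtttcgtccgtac
Snx12: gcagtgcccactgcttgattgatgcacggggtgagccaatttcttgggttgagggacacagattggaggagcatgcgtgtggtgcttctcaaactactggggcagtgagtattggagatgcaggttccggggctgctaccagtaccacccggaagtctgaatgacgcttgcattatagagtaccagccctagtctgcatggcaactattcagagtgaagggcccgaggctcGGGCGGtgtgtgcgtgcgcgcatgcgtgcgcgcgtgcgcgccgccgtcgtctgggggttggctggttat
Sqstm1 has 1 TATAAA and 3 GC boxes, and Snx12 has no TATAAA and 1 GC box. The TATAAA of Sqstm1 begins at position -1 relative to the annotated gene start, and is given as a match of letters only. Of 32851 promoter windows of the same length, 13.6% hold TATAAA and 35.7% hold GGGCGG. Neither window holds TCACGTGA, a core TFEB site found in 0.974% of windows, the forkhead site GTAAACA (3.65%) or the NRF2 core TGACNNNGC (12.4%), each searched on both strands. The matches in capitals do not overlap one another. These letters describe the windows only.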

How the data were processed

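The authors deposited log2 RMA expression values per transcript cluster and array, made in Affymetrix Expression Console per the labels. Per the file headers, their 6 comparison tables hold biweight averages on the log2 scale, an ANOVA p-value with its FDR value, and a signed linear fold, a score that is negative where the knockout was lower than WT. The submitters' processing notes also name Transcriptome Analysis Console. Versions, genome build and annotation are not stated in them, and coordinates are printed only for the RefSeq promoters.

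Of 72688 rows, 6732 array controls were left out, and clusters were tested where their mean over 23 arrays reached the median of such means, log2 4.95 (32978 clusters). limma 3.58.1 in R 4.3.3 (lmFit, eBayes) was fitted per cell type with 1 mean per genotype, and over all 8 groups for HSC against LMPP and for the difference in knockout effects. Benjamini-Hochberg adjustment ran over every cluster tested, a call being an adjusted p below 0.05, and intervals are 95% intervals of the fit. The script was tested on simulated data. The rest was computed in Python 3.11.15 (with numpy 2.4.6 and pandas 2.3.3) and drawn with matplotlib 3.10.9. No separate batch is given in the labels. Alternatives covered scaling, filters, sex, array weights, empirical Bayes settings, the groups in the fit, duplicate clusters and each array left out.

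The 5 genes, the lists and the tests were chosen with earlier results of these data known. The rule for named genes took the 5 members, every list gene named in the comparison tables and the 3 named genes with the highest Pearson's r with each member.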

Additional observations from a re-analysis of the deposited data

Results flagged for a closer look

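In 3 of 40 sets of 5 or 6 arrays (5 genes, 2 populations, with and without each subunit) 1 array lay far from the rest by Dixon's criterion, which chance meets in about 1 of 20 sets. Snx12 in p110δ-deficient LMPP was 10.35 on DKO replicate 2, against 9.32 to 9.70 on the other arrays of that set. Sqstm1 in p110α-deficient LMPP was 13.29 on p110α-/- replicate 1, against 11.51 to 11.98 on the others. Sqstm1 in p110α-containing HSC was 13.74 on WT replicate 2, against 11.72 to 12.11 on the others. Both arrays with high Sqstm1 also had high values of Ddit3 and Gadd45b, with means of 11.73 and 12.16.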

How the results depend on the processing

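Over 1769 values of the 5 genes under alternatives, no call was lost or changed sign, and 18 values passed the threshold only under an alternative. Sign changes numbered 51, all in values called under neither setting and of at most 0.36 in the deposited scaling. The count of called genes moved by over 1.5 times in 11 of 357 cases. The stricter low-value filter gave 1 called gene in p110δ-/- against WT LMPP (Vps33b, adjusted p 0.0394) and 1 in HSC against LMPP, since Rab7b is below that filter. The fit of all 8 groups gave 1 in p110δ-/- against WT LMPP (Rab7b, adjusted p 0.00719). That fit shares 1 estimate of spread with the HSC arrays, where Rab7b is near the low end. Over all genotypes the SD of Rab7b was 0.12 in HSC and 0.68 in LMPP. With each array left out in turn the counts ranged from 0 to 1 in p110α-/- against WT LMPP, 0 to 3 in p110δ-/- against WT LMPP, 0 to 1 in DKO against WT LMPP, 0 to 1 in p110δ-deficient and 0 to 1 in p110α-deficient LMPP, and 0 to 1 in the F test of knockout effects. The higher counts came without LMPP WT replicate 1, which leaves replicate 2, the array that stands apart, as the only LMPP WT array, assumed to vary like the other groups. Snx12 was then called in each of these (1.78, 1.49 and 1.87 against WT), and Rab7b and Vps33b in p110δ-/-. Without LMPP p110α-/- replicate 3, Vps33b was called in p110δ-/- against WT (adjusted p 0.0461) and in p110δ-deficient LMPP (0.0455). In HSC against LMPP in WT, Snx12 had adjusted p-values from 0.00851 to 0.579, and the count was 3 in place of 2 with median centring and without HSC p110δ-/- replicate 3, HSC WT replicate 1, LMPP DKO replicate 2 or LMPP WT replicate 1. Centring each array on its median moved the median LMPP difference from WT over all clusters to between 0.23 and 0.26, from at most 0.07 as deposited. Adjusted p-values for Rab44 in p110α-deficient LMPP ranged from 0.0877 to 0.998, and for Rab7b in p110δ-/- against WT LMPP from 0.00719 to 0.821. No paired analysis was possible because the labels give no replicate numbers, those used here being in accession order. The 3 comparisons between knockouts, and the list genes with arrays left out, were added after the data were seen.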
